A study of Mus musculus with 16 samples.

Results

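The small nucleolar RNA (snoRNA) genes measured on these arrays were those whose probe set carried a Snord or Snora symbol followed by a digit and no other symbol. They were 41 of the 19531 genes with a probe set of 1 symbol, and they comprised 24 C/D box genes (Snord) and 17 H/ACA box genes (Snora). A further 21 probe sets joined such a symbol to another gene's and were left out. Each gene was represented by its brightest probe set, and all values are log2 of the deposited intensity. A difference of 1 on this scale is therefore a doubling of the signal.

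The cells were mouse thymocytes of the double-negative (DN) stages, at which neither CD4 nor CD8 is carried and the T cell receptor (TCR) genes are being rearranged. There were 8 groups of 2 arrays, in the combinations of stage, genotype and strain. DN4 cells were sorted as lineage-negative, CD44-negative and CD25-negative, and the earlier DN2-3 cells as lineage-negative and CD25-positive, both after complement lysis of CD4 and CD8 cells. BDC mice carried the BDC2.5 TCR transgene, taken from a diabetogenic CD4 T cell clone, and non-Tg mice did not. Both genotypes were studied on NOD, a strain that develops autoimmune diabetes, and on B6g7, C57BL/6 mice with the NOD H2g7 MHC region, so that every group shared H2g7. All mice were 4 weeks old. The non-Tg arrays were all from females, and each BDC group held 1 male array (replicate 1) and 1 female array (replicate 2). The labels name neither the promoter of the transgene nor whether animals were pooled. They do not say that replicates came from separate animals, so the p-values measure the spread between these arrays, which may be technical.

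SnoRNAs are short nuclear RNAs that guide chemical marks onto ribosomal RNA. C/D box snoRNAs direct methylation of the ribose through the methyltransferase fibrillarin (Fbl), and H/ACA box snoRNAs direct the change of uridine into pseudouridine through dyskerin (Dkc1). A few, such as U8 (Snord118), act in the cleavage of the rRNA precursor. Most mammalian snoRNAs are cut from introns of host genes after splicing, and many of these hosts encode ribosomal proteins or translation factors.

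In the RefSeq gene table of GRCm38.p6, 40 of the 41 snoRNA genes lay within the span of another gene, taken here as the host, although the strand was not checked. The exception was Snord118. There were 37 host genes, of which 30 were protein-coding and 7 were long noncoding RNA genes. Ribosomal protein genes made up 16 of them and held 19 of the snoRNA genes. The Snord genes were 53 to 148 bases long (median 69.5) and the Snora genes 61 to 198 bases (median 120.0).

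Genes of ribosomal proteins and translation factors are known for start sites at a C followed by an unbroken pyrimidine run. This is the core of the terminal oligopyrimidine motif. The start windows below show this feature beside hosts without it, for snoRNAs described in the results. Each window, from RefSeq on GRCm38.p6, holds 15 bases before the annotated start and 25 bases from it. Capitals mark a C at the start with the C and T letters that follow it without a break, where there are at least 5.
Rack1, host of Snord96a, chr11:48800345-48800384, plus strand: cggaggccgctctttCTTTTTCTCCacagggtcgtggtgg
Ipo7, host of Snora23, chr7:110018300-110018339, plus strand: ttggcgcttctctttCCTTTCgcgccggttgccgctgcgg
Rplp2, host of Snora52, chr7:141447636-141447675, plus strand: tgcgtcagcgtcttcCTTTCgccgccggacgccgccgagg
1110038B12Rik, host of Snord52, chr17:34952444-34952483, minus strand: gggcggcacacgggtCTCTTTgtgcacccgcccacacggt
Eef2, host of Snord37, chr10:81176616-81176655, plus strand: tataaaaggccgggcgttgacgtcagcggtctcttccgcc
Rpl27a, host of Snora3, chr7:109519180-109519219, plus strand: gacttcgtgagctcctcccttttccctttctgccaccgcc
Read on the gene's strand from the annotated start onward, such a run was found in 4 of 27 host genes with a promoter (14.8%). Of all 27025 genes with a promoter, 3.01% had one. Among the hosts, 1 of 11 ribosomal protein genes and 3 of 16 others had the run. In all 4 the base before the annotated start was also a C or T, so the pyrimidines did not begin there. In Rpl27a 16 pyrimidines follow in a row from the annotated start, where pyrimidines also precede it, but the letter there is a T. A match is a description of these letters and shows no use of the motif.

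Some arrays stood apart before any comparison. The ratio of the upper to the lower quartile of all signals was 6.82 in NOD DN2-3 replicate 1 and 7.60 and 7.46 in the B6g7 DN4 arrays, against 8.30 to 10.3 in the other 13 arrays. Signals of Y-linked genes on the 12 female arrays reached 5.98, which served as a yardstick of background. The DN2-3 marker Il2ra followed the sort, with linear intensities of 547 to 1506 in DN4 arrays and 5130 to 10108 in DN2-3 arrays. The 4 double-negative thymocyte markers on the array were above background throughout. The 3 markers of later thymocytes (Cd4, Cd8a and Cd8b1) summed to 1101 to 1156 in BDC/NOD DN4, 489 to 501 in BDC/B6g7 DN4, 1388 to 1576 in NOD DN4 and 3002 to 3092 in B6g7 DN4, against 297 to 547 in DN2-3 arrays. Both NK cell markers, 2 of 3 B cell markers and 3 of 4 myeloid markers were at or below background on every array, and summed signals over the 16 arrays were 182 to 216 for dendritic cell, 63.2 to 91.2 for erythroid (1 of 3 markers on the array) and 376 to 577 for thymic epithelial markers. Myeloid markers summed to 212 to 225 in BDC DN2-3 and 340 to 405 in non-Tg DN2-3, and B cell markers to 474 to 614 in BDC DN2-3 and 761 to 885 in non-Tg DN2-3. The progenitor markers Kit and Cd44 summed to 546 to 597 in BDC/NOD DN4, 774 to 938 in BDC/B6g7 DN4 and 377 to 489 in non-Tg DN4, against 1061 to 1489 in DN2-3 arrays. The part of these cells in the results was not tested, and in such bulk samples fewer cells of a type cannot be told apart from less RNA per cell.

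SnoRNA signals were brighter than those of most genes on the array. Averaged over the 16 arrays, the Snord members ran from 4.53 to 11.56 with a median of 8.68, and the Snora members from 6.28 to 12.83 with a median of 8.71. All genes had a median of 7.02. Probe sets differ in how strongly they respond, so these values were not read as relative amounts of RNA. With 40 of the 41 genes inside a host gene, signal of the finished snoRNA was not told apart from that of unspliced host RNA. The brightest H/ACA probe sets belonged to Snora52 (12.83), Snora23 (12.14) and Snora7a (11.37). The brightest C/D probe sets belonged to Snord53 (11.56), Snord82 (11.50) and Snord49b (11.12). At the other end, Snord58b (4.53) and Snord38a (4.71) lay at or below background on all 16 arrays, and differences between arrays there were not read as changes. Snora2b (6.28), Snord37, Snord87 and Snord73a fell to background on 1 to 4 arrays, and the other 35 members, Snora41 (6.90) included, were above it on every array.

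Members differed in how far they moved between groups. Snora52, whose human counterpart guides pseudouridylation of large-subunit rRNA, stayed between 12.60 and 13.04 on all 16 arrays. The largest range of the 8 group means was that of Snord37, at least 8.54-fold between BDC/B6g7 DN4 and B6g7 DN4, since it was below background in the second. On the log2 scale the next largest were 1.73 for Snord49a and 1.20 for Snord53 among C/D members, and 1.25 for Snora70, 1.05 for Snora21 and 0.99 for Snora23 among H/ACA members. The median range was 0.64 for Snord, 0.72 for Snora and 0.46 for all genes. A range over 1 was found for 5 of 24 Snord members (20.8%), 2 of 17 Snora members (11.8%) and 16.3% of all genes. The snoRNA signals were also less repeatable, with a median replicate SD of 0.22 for Snord and 0.16 for Snora members, against 0.13 for all genes.

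**Figure D1:**
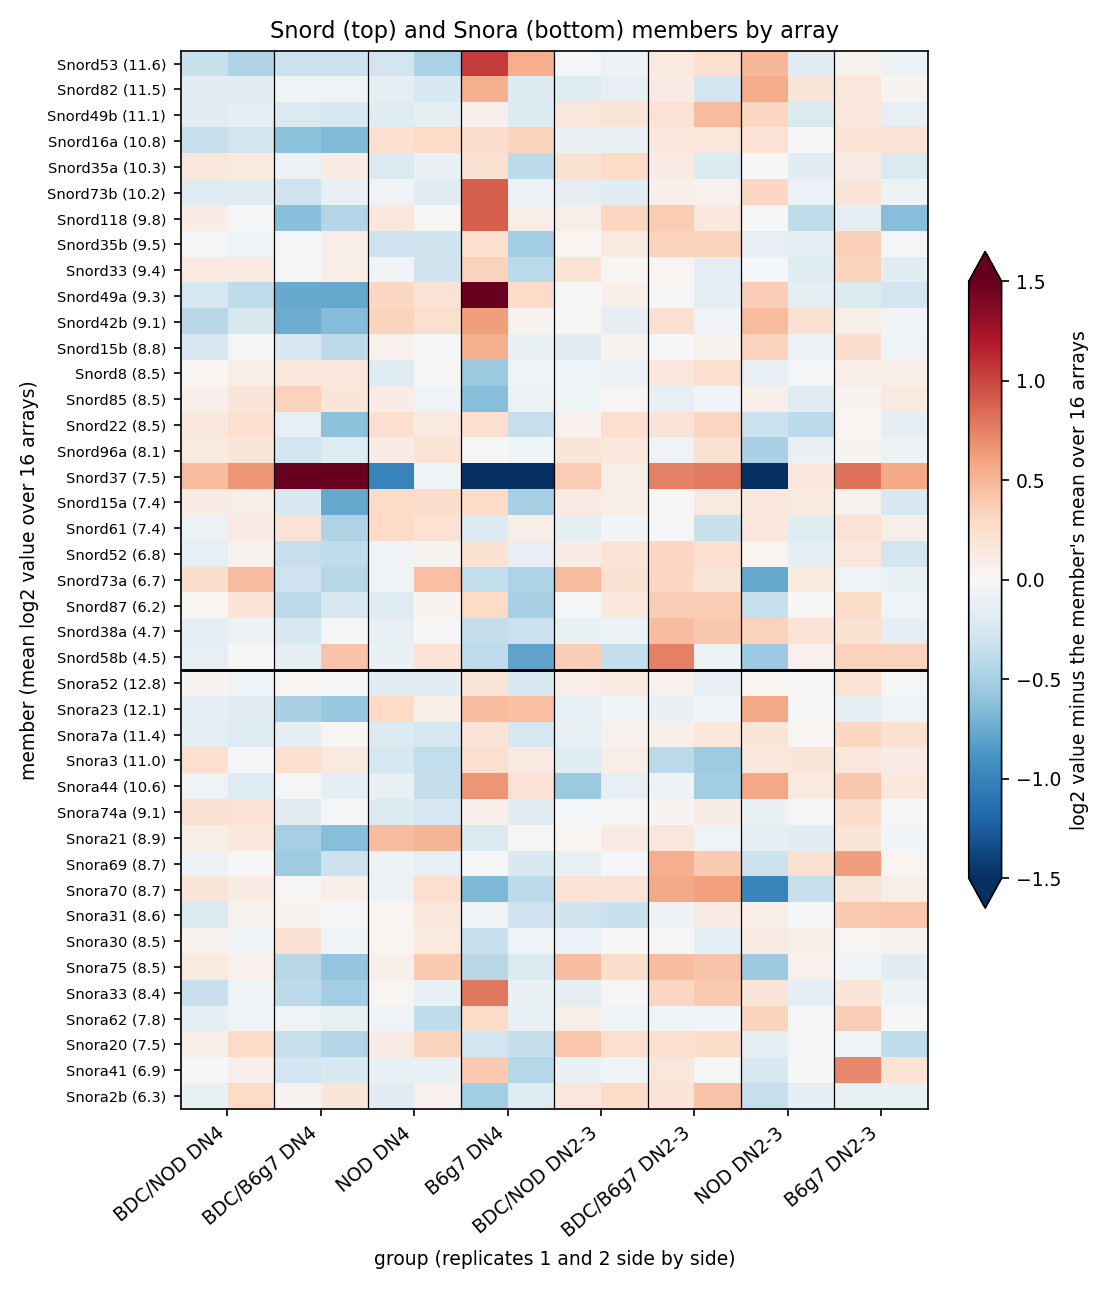
Each row is a snoRNA gene, with its mean log2 signal in brackets, and each column an array, coloured by the log2 signal minus that mean on a scale that saturates beyond its ends, with Snord members above Snora members. The Snord37 row spans the widest range, and many rows are low in the 2 BDC/B6g7 DN4 arrays.

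The replicate arrays of 2 groups differed in the same direction over many snoRNAs. In B6g7 DN4, replicate 1 was above replicate 2 for 18 of 24 Snord members, by a median of 0.54, and for 12 of 17 Snora members, by a median of 0.23, while 45.4% of all genes were higher in replicate 1. In B6g7 DN2-3, replicate 1 was above replicate 2 for 22 of 24 Snord members (median 0.21) and 13 of 17 Snora members (median 0.22), against 43.8% of all genes. These arrays enter the non-Tg side of every transgene comparison in B6g7, so counts without them are given where they change a statement.

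**Figure D2:**
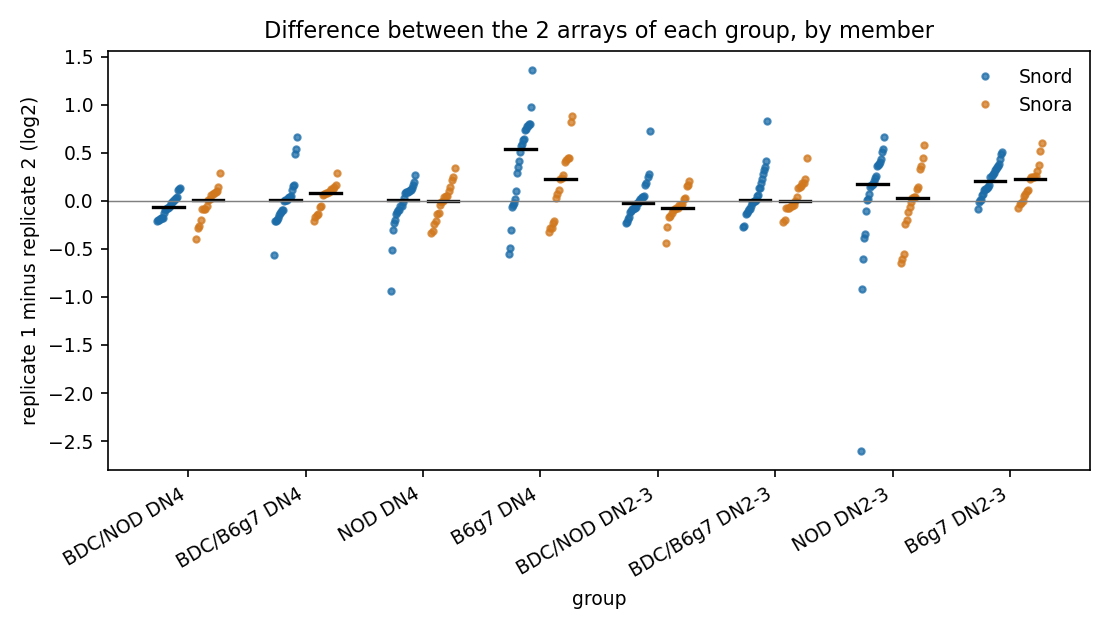
For each of the 8 groups, points give replicate 1 minus replicate 2 in log2 signal for every Snord and Snora member, with bars at the class medians. The B6g7 DN4 Snord points lie mostly above 0, with a median of 0.54.

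In DN4 cells, the BDC2.5 transgene went with higher Snord37 and with lower signals of several bright snoRNAs. The comparison averaged the transgene difference over both strains. Of the 41 members, 13 passed the test (limma, Benjamini-Hochberg adjusted p under 0.05 over all 19531 genes), or 31.7%, against 34.1% of all genes, so the share was near the background. Among C/D members 3 rose and 5 fell, and among H/ACA members 2 rose and 3 fell, while 15.4% of all genes rose and 18.7% fell. The median change was -0.10 for Snord, -0.02 for Snora and -0.07 for all genes.

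Snord37, encoded in Eef2 and known in humans to guide methylation of large-subunit rRNA, changed most. It stood at 7.97 and 8.16 in BDC/NOD DN4 and at 9.09 and 9.05 in BDC/B6g7 DN4, against 6.50 and 7.44 in NOD DN4 and 5.35 and 5.37 in B6g7 DN4. All 4 BDC arrays were above all 4 non-Tg arrays, and the B6g7 DN4 arrays were below background. The averaged difference was 2.41 ± 0.36 (SE; adjusted p = 6.9e-05), or 2.10 with signals below background raised to it. In NOD alone the difference was 1.10 ± 0.52 (SE; adjusted p = 0.229) and did not pass. In B6g7 alone the signal was at least 8.54-fold higher with the transgene (adjusted p = 3.0e-05), counted against the background level and from measured means of 9.07 in BDC/B6g7 and 5.36 in B6g7.

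The 3 arrays on which Snord37 was at or below background were NOD DN2-3 replicate 1, at 5.07, and both B6g7 DN4 arrays. They were also the 3 lowest in the signal of its host Eef2, the elongation factor that moves the ribosome along mRNA, at 12.21 in NOD DN2-3 replicate 1 and 12.48 and 12.90 in B6g7 DN4. Eef2 lay between 12.98 and 13.39 on the other 13 arrays, where Snord37 was at 6.50 or more. The same 3 arrays had the lowest quartile ratios, and the part of array quality in the Snord37 values was not tested. Eef2 itself was 0.44 ± 0.14 higher in BDC DN4 cells (SE; adjusted p = 0.0238).

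**Figure D3:**
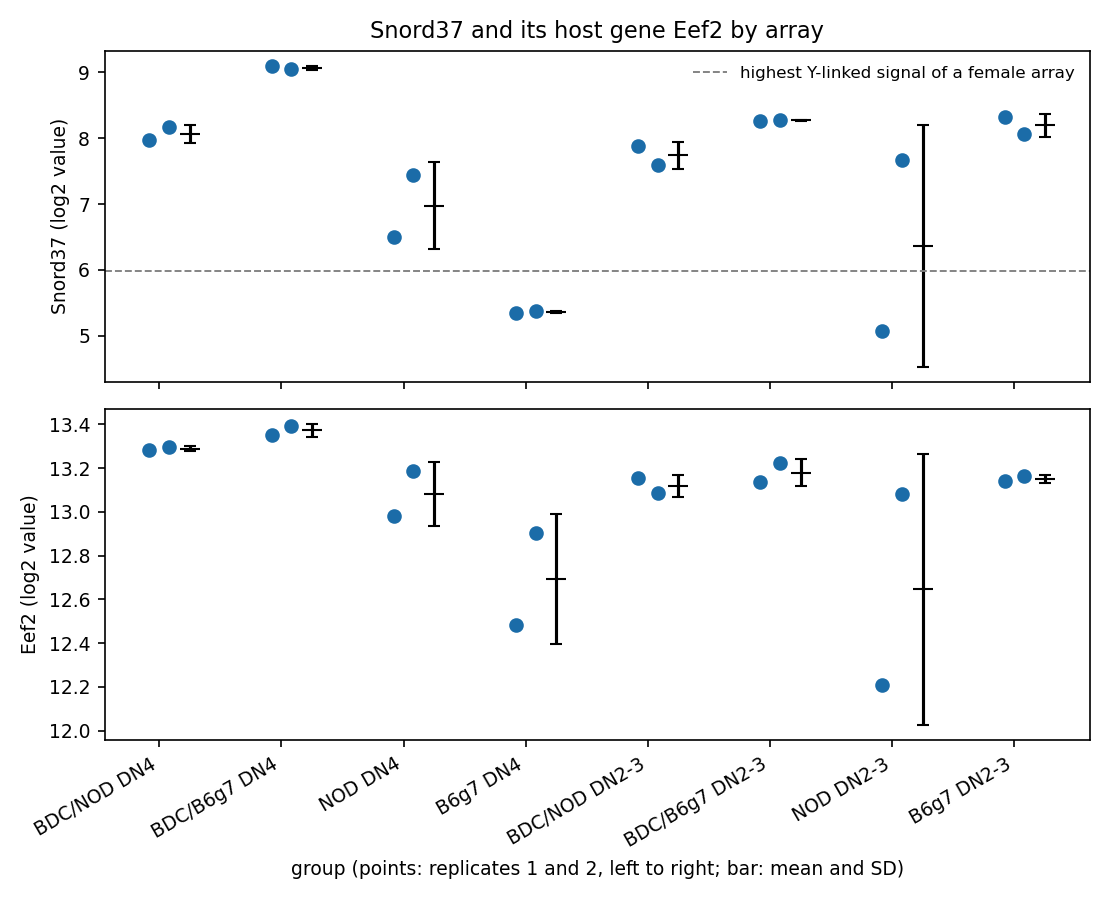
Log2 signals of Snord37 (upper panel) and its host gene Eef2 (lower panel) are shown for each array by group, with points for replicates 1 and 2 and a bar for their mean and SD. A dashed line marks the background of 5.98, and the 3 arrays below it are also those with the lowest Eef2 signals, 12.21 to 12.90.

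The members that fell in BDC DN4 cells included guides of both classes. Snord16a, whose human counterpart guides methylation of small-subunit rRNA, was at 10.45 and 10.52 in BDC/NOD DN4 and at 10.19 and 10.14 in BDC/B6g7 DN4, against 11.04 and 11.10 in NOD DN4 and 11.06 and 11.13 in B6g7 DN4. The groups did not overlap in either strain, the difference was -0.76 ± 0.07 (SE; adjusted p = 3.2e-07), and both strains passed alone (-0.58 in NOD and -0.93 in B6g7). Snord42b, also a small-subunit guide in humans, was at 8.68 and 8.86 in BDC/NOD DN4 and at 8.35 and 8.45 in BDC/B6g7 DN4, against 9.43 and 9.34 in NOD DN4 and 9.72 and 9.15 in B6g7 DN4. It too was apart in both strains, with a difference of -0.83 ± 0.11 (SE; adjusted p = 2.5e-05).

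Snord49a, a large-subunit guide in humans, fell by 1.16 on the log2 scale (SE 0.20; adjusted p = 2.2e-04). Its values were 9.04 and 8.92 in BDC/NOD DN4 and 8.54 and 8.53 in BDC/B6g7 DN4, against 9.61 and 9.52 in NOD DN4 and 10.95 and 9.58 in B6g7 DN4. The groups were apart, but the B6g7 DN4 replicates differed widely, and without replicate 1 of that group the difference was -0.82. Snord53, a bright C/D member in Wdr43, fell by 0.57 (SE 0.13; adjusted p = 0.00213), although its NOD arrays overlapped between genotypes, at 11.22 and 11.09 in BDC/NOD DN4 and 11.28 and 11.08 in NOD DN4.

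Among the H/ACA members, Snora23 fell by 0.67 (SE 0.10; adjusted p = 7.5e-05). This member, encoded in Ipo7 and a large-subunit guide in humans, was at a mean of 11.99 in BDC/NOD DN4 and at 11.66 and 11.57 in BDC/B6g7 DN4, against 12.44 and 12.23 in NOD DN4 and 12.62 and 12.59 in B6g7 DN4. Snora21 fell by 0.41 (SE 0.08; adjusted p = 8.7e-04), with 8.98 and 9.04 in BDC/NOD DN4 and 8.39 and 8.25 in BDC/B6g7 DN4, against 9.35 and 9.39 in NOD DN4 and 8.67 and 8.90 in B6g7 DN4. Both were lower on every BDC array than on the non-Tg arrays of the same strain. The remaining falls were Snord118 (-0.53) and Snora33 (-0.48). The remaining rises were smaller than that of Snord37: Snord85 (0.36), Snora70 (0.32), Snora2b (0.31) and Snord8, which rose by 0.31 ± 0.09 (SE; adjusted p = 0.0163).

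The B6g7 DN4 replicate 1 array decided part of this list. Without it 11 members passed, of which 7 were among the 13, while Snord118, Snord8, Snord85, Snora33, Snora70 and Snora2b no longer passed and Snord33, Snord35a, Snord35b and Snora74a were added. Without replicate 2 of that group all 13 passed among 18. In NOD no Snord member rose and 2 fell, with 2 Snora members up and none down, out of 6 members at an unadjusted p under 0.05 (5.12% of all genes rose and 6.67% fell, or 11.8% in all). In B6g7 3 Snord members rose and 8 fell, with 2 Snora members up and 4 down (16.1% of all genes rose and 19.2% fell, or 35.3% in all). The difference between strains was not tested for these counts.

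In DN2-3 cells the transgene went with higher Snora70 and Snora75 and with lower Snora44 and Snora3. Of the 41, 11 passed (26.8%), against 27% of all genes. The C/D members gave 4 rises and no fall by limma, out of 6 at an unadjusted p under 0.05, and the H/ACA members gave 4 rises and 3 falls. Of all genes 15% rose and 12% fell. Without B6g7 DN2-3 replicate 2 the count was 7. Myeloid and B cell marker sums were also lower in BDC than in non-Tg DN2-3 arrays, as given above, and their part in these changes was not tested. The median change was 0.06 for Snord, -0.01 for Snora and -0.03 for all genes.

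Snora70, whose human counterpart is a small-subunit guide, rose by 0.66 ± 0.12 (SE; adjusted p = 0.00062). It was at 8.92 and 8.90 in BDC/NOD DN2-3 and at 9.27 and 9.32 in BDC/B6g7 DN2-3, against 7.72 and 8.36 in NOD DN2-3 and 8.89 and 8.79 in B6g7 DN2-3. Snora75 (U23), encoded in the nucleolin gene Ncl, rose by 0.57 ± 0.12 (SE; adjusted p = 0.00173), with 8.93 and 8.72 in BDC/NOD DN2-3 and 8.93 and 8.89 in BDC/B6g7 DN2-3, against 7.92 and 8.53 in NOD DN2-3 and 8.42 and 8.31 in B6g7 DN2-3. In both genes the NOD DN2-3 replicates were far apart, with replicate 1 the lower. Snora20 rose by 0.45 ± 0.09 (SE; adjusted p = 0.00119) and Snora2b by 0.45 ± 0.11 (SE; adjusted p = 0.00465).

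Among C/D members, U8 (Snord118) was at 9.85 and 10.09 in BDC/NOD DN2-3 and 10.15 and 9.93 in BDC/B6g7 DN2-3, against 9.77 and 9.39 in NOD DN2-3 and 9.62 and 9.13 in B6g7 DN2-3. Its difference was 0.53 ± 0.15 (SE; adjusted p = 0.0176), and it no longer passed when any of 3 single arrays was left out, with an adjusted p of 0.0996 without B6g7 DN2-3 replicate 2. Snord73a rose by 0.49 (SE 0.16; adjusted p = 0.0274), but it did not pass when any of 6 single arrays was left out, and it was at 0.26 without NOD DN2-3 replicate 1 (adjusted p = 0.095). Snord22 (U22), known in Xenopus for its part in making small-subunit rRNA, rose by 0.41 (adjusted p = 0.0206), but did not pass when any of 3 single arrays was left out. Snord96a rose by 0.29 (adjusted p = 0.026).

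The 3 falls in DN2-3 cells were all H/ACA. Snora44, a small-subunit guide in humans, was at 9.99 and 10.43 in BDC/NOD DN2-3 and 10.47 and 10.03 in BDC/B6g7 DN2-3, against 11.13 and 10.68 in NOD DN2-3 and 10.96 and 10.71 in B6g7 DN2-3. The groups did not overlap, and the difference was -0.64 ± 0.14 (SE; adjusted p = 0.00271). Snora3 was at 10.85 and 11.12 in BDC/NOD DN2-3 and 10.64 and 10.49 in BDC/B6g7 DN2-3, against 11.20 and 11.21 in NOD DN2-3 and 11.19 and 11.14 in B6g7 DN2-3. It fell by 0.41 (SE 0.09; adjusted p = 0.00202), and Snora31 fell by 0.36 (SE 0.09; adjusted p = 0.0048).

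Between stages, BDC cells at DN4 had lower signals of many snoRNAs than BDC cells at DN2-3. The test called 13 of 41 members (31.7%), against 26.8% of all genes, and 30 members lay below 0. No Snord member rose and 7 were called lower, of which Snord38a was below background, while 1 Snora member rose and 5 fell, against 11.7% of all genes rising and 15.1% falling. With signals raised to background 8 members passed (19.5%), against 24.7% of all genes, and 8 also passed without BDC/B6g7 DN2-3 replicate 1, BDC/NOD DN2-3 replicate 2 or BDC/NOD DN4 replicate 1. The share called was therefore not steadily above that of all genes. The median change was -0.25 for Snord and -0.15 for Snora, against -0.01 for all genes. Snora75 was at 8.61 and 8.52 in BDC/NOD DN4 and 8.04 and 7.88 in BDC/B6g7 DN4, against 8.93 and 8.72 in BDC/NOD DN2-3 and 8.93 and 8.89 in BDC/B6g7 DN2-3. It fell by 0.60 (SE 0.12; adjusted p = 9.4e-04).

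Snord42b fell by 0.53 (SE 0.11; adjusted p = 0.00198) and Snord16a by 0.51 (SE 0.07; adjusted p = 3.2e-05). Snord16a was at 10.71 on both BDC/NOD DN2-3 arrays and at 10.97 on both BDC/B6g7 DN2-3 arrays, above its DN4 values given earlier. Snord49b was at 10.96 and 10.98 in BDC/NOD DN4 and 10.91 and 10.88 in BDC/B6g7 DN4, against 11.29 and 11.31 in BDC/NOD DN2-3 and 11.33 and 11.59 in BDC/B6g7 DN2-3. It fell by 0.45 (SE 0.11; adjusted p = 0.00608). The exception was Snora3, which rose by 0.40 ± 0.09 (SE; adjusted p = 0.00202), with 11.28 and 10.99 in BDC/NOD DN4 and 11.28 and 11.16 in BDC/B6g7 DN4, against the DN2-3 values above.

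The falls with stage were mostly called in B6g7. In BDC/NOD cells no member passed by limma and 1 had an unadjusted p under 0.05, with medians of -0.02 for Snord and -0.06 for Snora (3.37% of all genes rose and 1.41% fell, or 4.78% in all). In BDC/B6g7 cells 10 Snord members fell and none rose, and 7 Snora members fell and 1 rose, with medians of -0.43 and -0.21 (11% of all genes rose and 15.6% fell, or 26.6% in all). The difference between the strains in this change was not tested. The BDC/B6g7 DN4 group also held the lowest of the 8 group means for 18 of the 41 members (43.9%), namely 11 of 24 Snord (45.8%) and 7 of 17 Snora (41.2%), against 21.7% of all genes. The later thymocyte markers were lowest among the DN4 groups in the same arrays, at 489 to 501. The sum of the progenitor markers was highest there, at 774 to 938, but its parts differed. On the log2 scale Kit was highest (9.61, against 8.32 in B6g7, 8.53 in NOD and 8.93 in BDC/NOD DN4). Cd44 was lowest (6.18, against 6.58, 6.88 and 6.39 in the same order). Their part in this was not tested.

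In non-Tg cells the stage comparison called 7 of 41 members (17.1%), against 25.8% of all genes. Averaged over strains, Snord49a (0.68), Snord118 and Snora21 (0.24) rose, and Snord37 (-1.12), Snora7a and Snora31 (-0.25) fell. For Snora21, Snord37 and Snora31 the strains went in opposite directions. From DN2-3 to DN4 the Snora21 mean went from 8.73 to 9.37 in NOD, but from 8.95 to 8.78 in B6g7. That of Snord37 went from 6.37 to 6.97 in NOD, but from 8.19 to 5.36 in B6g7. That of Snora31 went from 8.67 to 8.74 in NOD, but from 9.04 to 8.46 in B6g7. Snord38a was called lower, but below background throughout. Of all genes 14% rose and 11.8% fell. Snord118 was at 9.92 and 9.79 in NOD DN4 and 10.66 and 9.86 in B6g7 DN4, against 9.77 and 9.39 in NOD DN2-3 and 9.62 and 9.13 in B6g7 DN2-3. It rose by 0.58 ± 0.15 (SE; adjusted p = 0.00936), but did not pass when either of 2 single arrays was left out, with a value of 0.38 without B6g7 DN4 replicate 1 (adjusted p = 0.0521). Snora7a fell by 0.31 (SE 0.09; adjusted p = 0.0194), but did not pass when any of 3 single arrays was left out, where it fell by 0.20 without B6g7 DN4 replicate 2 (adjusted p = 0.0988). Leaving out B6g7 DN2-3 replicate 1, B6g7 DN2-3 replicate 2 or NOD DN4 replicate 1 reduced the 7 calls to 4, 3 and 3, and the count was 1 with signals raised to background.

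Within single strains several members were called, and 2 are described first. Snord37 was at least 4.65-fold lower in B6g7 DN4 than in B6g7 DN2-3 (adjusted p = 9.4e-04). Snora70 went in opposite directions, by 0.75 in NOD (adjusted p = 0.00488) and -0.67 in B6g7 (adjusted p = 0.00902). Its values were 8.62 and 8.96 in NOD DN4, against 7.72 and 8.36 in NOD DN2-3. In B6g7 they were 8.03 and 8.31 at DN4, against 8.89 and 8.79 at DN2-3. The values of 7.72, 8.03 and 8.31 were its lowest over all arrays. They came from NOD DN2-3 replicate 1 and both B6g7 DN4 arrays, those with the lowest quartile ratios. The part of array quality in these Snora70 values was not tested. Snord53 also went in opposite directions, with means of 12.36 at DN4 and 11.55 at DN2-3 in B6g7. In NOD they were 11.18 at DN4 and 11.72 at DN2-3.

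**Figure D4:**
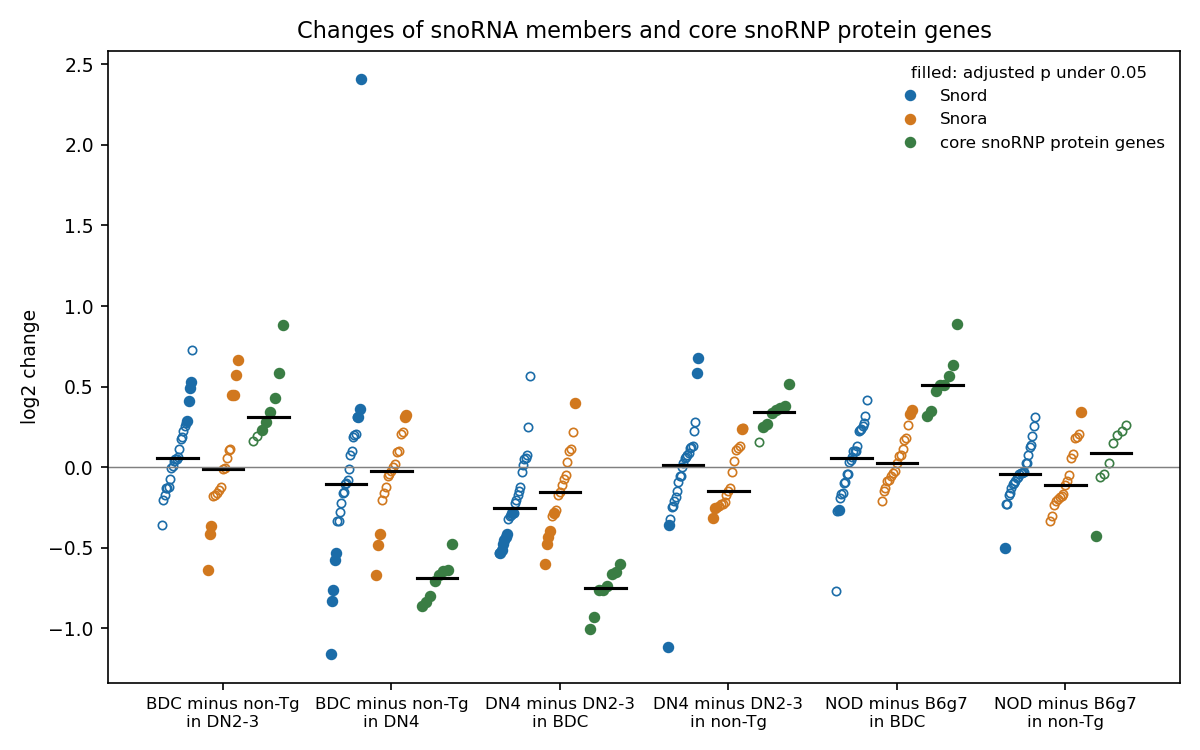
For each of the 6 pairwise comparisons, points give the log2 change of every Snord and Snora member. Genes for the core proteins of the snoRNA particles are shown beside them. Points are filled where limma's adjusted p was under 0.05, and bars mark the medians. In BDC cells the stage change of snoRNAs lies mostly below 0, with medians of -0.25 for Snord and -0.15 for Snora.

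The strain comparisons called few snoRNAs in the fit to all arrays, and these counts changed with single arrays. In non-Tg cells 2 of 41 members passed (4.88%), against 7.5% of all genes (4.6% higher and 2.9% lower in NOD), with Snora20 higher in NOD by 0.34 (SE 0.09; adjusted p = 0.0232) and Snord53 lower (-0.50, SE 0.13; adjusted p = 0.0242). Snord53 was lower in NOD only at DN4, with means of 11.18 in NOD and 12.36 in B6g7. At DN2-3 the means were 11.72 in NOD and 11.55 in B6g7. The B6g7 DN4 arrays were among those with the lowest quartile ratios, and the part of array quality was not tested. In BDC cells 3 passed (7.32%), against 19.4% of all genes (11.5% higher and 7.9% lower in NOD). Snora21 was 0.36 ± 0.08 higher in BDC/NOD than in BDC/B6g7 (SE; adjusted p = 0.00524), Snora20 was 0.33 ± 0.09 higher (SE; adjusted p = 0.0125), and Snord38a was below background. Snora20 was at 7.59 and 7.79 in BDC/NOD DN4, against 7.15 and 7.06 in BDC/B6g7 DN4, and at 7.91 and 7.75 in BDC/NOD DN2-3, against 7.73 and 7.77 in BDC/B6g7 DN2-3. It was thus apart at DN4 and overlapped at DN2-3. Leaving out 1 array at a time gave 0 to 7 calls in non-Tg and 1 to 7 in BDC cells, with 0 in non-Tg cells without B6g7 DN2-3 replicate 2 or NOD DN4 replicate 2 and 7 in BDC cells without either NOD DN2-3 array. With only the arrays compared, 12 of 41 members passed in BDC cells, beside 5048 of 19531 genes. All genes called in BDC cells were 4915 without NOD DN2-3 replicate 1 or 2, against 3786 in the fit to all arrays.

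Within the stages of BDC cells, 8 members were higher in BDC/NOD DN4 than in BDC/B6g7 DN4 and none was lower, 5 of them Snord and 3 Snora (12.9% of all genes were higher and 7.8% lower, or 20.7% in all). They included Snora21 (0.69, adjusted p = 3.9e-04) and Snora75 (0.61, adjusted p = 0.014). In DN2-3 cells of the same genotypes 1 member passed (4.38% of all genes called). The interaction of strain and transgene called 1 member, Snord38a, which is below background (2.44%, against 4.58% of all genes, 2.04% positive and 2.54% negative).

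The transgene difference depended on the stage for 17 of 41 members (41.5%), against 31.5% of all genes, and for 13 (31.7%), against 30% of all genes, with signals raised to background. A negative value means that BDC minus non-Tg was lower at DN4 than at DN2-3. The interaction was negative for 8 Snord and 5 Snora members and positive for 2 of each, against 17% and 14.4% of all genes. Among C/D members it was -1.21 ± 0.28 for Snord49a (SE; adjusted p = 0.00301), -1.06 ± 0.22 for Snord118 (SE; adjusted p = 0.00109) and -0.66 ± 0.16 for Snord42b (SE; adjusted p = 0.00432). Among H/ACA members it was -0.73 ± 0.17 for Snora75 (SE; adjusted p = 0.00239), -0.60 for Snora33 (adjusted p = 0.0401) and -0.52 ± 0.12 for Snora21 (SE; adjusted p = 0.0024). Snora33 did not pass when any of 12 single arrays was left out, and was at -0.37 without B6g7 DN4 replicate 1.

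Positive interactions were those of Snord37 (1.68 ± 0.52, SE; adjusted p = 0.0193), Snora3 (0.63 ± 0.12, SE; adjusted p = 6.5e-04), Snord85 (0.43) and Snora31 (0.36). Snord37 no longer passed without NOD DN4 replicate 1 (adjusted p = 0.0542). Snord85 did not pass when any of 12 single arrays was left out, and Snora31 when any of 9 was. Snord118 passed as higher in BDC at DN2-3 and as lower at DN4, but its DN4 arrays overlapped in NOD. They were at 9.88 and 9.75 in BDC/NOD DN4 and 9.92 and 9.79 in NOD DN4. Only in B6g7 were they apart, at 9.14 and 9.33 in BDC/B6g7 DN4 against 10.66 and 9.86 in B6g7 DN4. Snora3 and Snora75 each passed in 1 direction at DN2-3 and did not pass at DN4. Thus Snora3, lower in BDC at DN2-3, was at 10.99 to 11.28 on the 4 BDC DN4 arrays and at 10.65 to 11.27 on the 4 non-Tg DN4 arrays, which overlap.

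Of all genes 52.5% passed in at least 1 of the 8 comparisons, against 14 of 24 Snord members (58.3%) and 12 of 17 Snora members (70.6%). The 15 that passed in none were Snord15a, Snord15b, Snord33, Snord35a, Snord35b, Snord58b, Snord61, Snord73b, Snord82, Snord87, Snora30, Snora41, Snora52, Snora62 and Snora74a. Their largest changes lay between 0.18 and 0.41 in size.

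Host genes could be set beside 25 members, whose 22 hosts were on the array. The list of hosts showed 2 rises and 7 falls with the transgene at DN4, 11 rises and no fall at DN2-3, and 1 rise and 11 falls from DN2-3 to DN4 in BDC cells. The shares called were 40.9%, 50% and 54.5%, against 34.1%, 27% and 26.8% of all genes. As a description across the 25 pairs, which share arrays and in part hosts, Pearson's r of member and host changes was 0.54 at DN4 and 0.08 at DN2-3 with the transgene, 0.49 between stages in BDC cells and 0.50 for the interaction. Member and host passed in the same direction for 5 pairs at DN4, 5 at DN2-3 and 6 between stages in BDC cells.

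Some pairs moved by like amounts. Snora23 and Ipo7, a nuclear import receptor, fell by 0.67 and 0.76 in BDC DN4 cells, and Snord53 and Wdr43, a factor of small-subunit assembly, by 0.57 and 0.58. Snord8 and Chd8, a chromatin remodeller, rose by 0.31 and 0.32. Others parted. Snord16a had a change of -0.76 while its host Rpl4 had -0.24, Snord42b had -0.83 while Rpl23a had -0.13 (adjusted p = 0.269), and Snora21 had -0.41 while Rpl23 had 0.04 (adjusted p = 0.683).

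Snora3 and Rpl27a passed in opposite directions. From DN2-3 to DN4 in BDC cells Snora3 rose by 0.40, while Rpl27a changed by -0.30 ± 0.07 (SE; adjusted p = 0.00417). In the interaction Snora3 was at 0.63 and Rpl27a at -0.47 ± 0.10 (SE; adjusted p = 0.0013). SnoRNAs of the same host also differed. In the interaction Snora75 was at -0.73 and its host Ncl at -0.81, while Snord82, a C/D member of the same gene, was at 0.26 (adjusted p = 0.371). With the transgene at DN4, Snord49a was at -1.16 and Snord49b, in the same host, at -0.08 (adjusted p = 0.641). These differences between members were not tested.

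**Figure D5:**
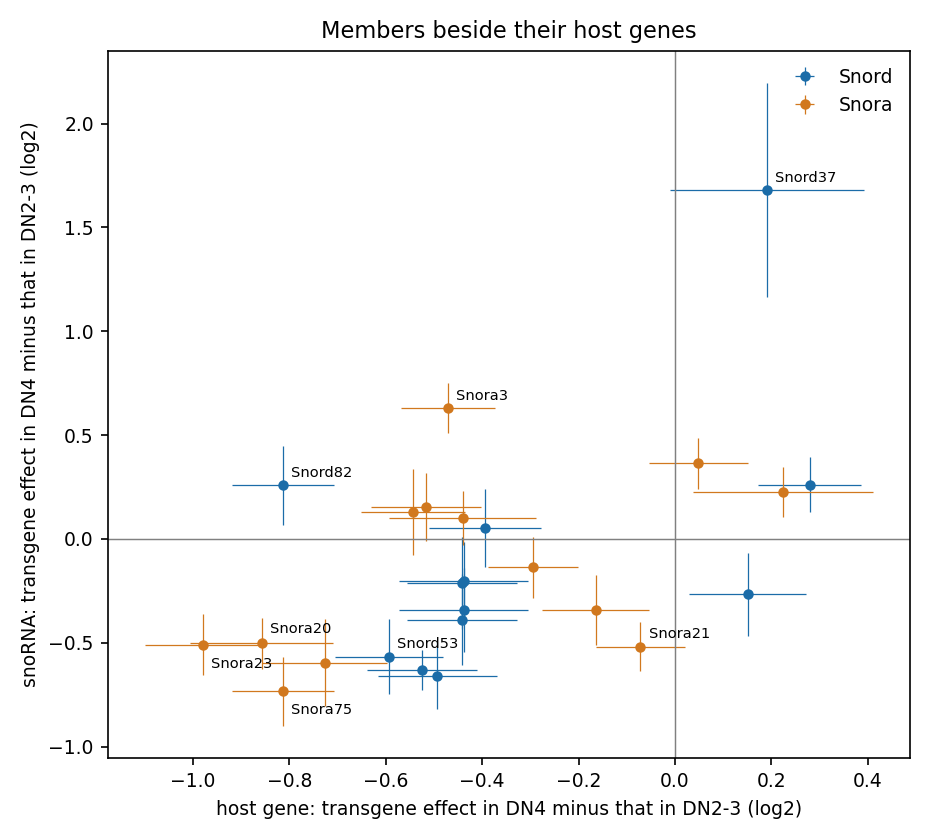
Each point is a snoRNA with its host gene, with the log2 transgene by stage interaction (the transgene difference at DN4 minus that at DN2-3) of the host on the horizontal axis and of the snoRNA on the vertical axis, and bars of 1 SE. Snora75 lies at -0.73 beside -0.81 for its host, while Snora3 lies above 0 and its host Rpl27a below.

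The genes for the core proteins of the snoRNA particles fell together in BDC DN4 cells, though mostly in B6g7. Their mRNA was measured and not the proteins, and they are called core proteins below for short. The C/D core proteins Fbl, Nop56, Nop58 and Snu13 and the H/ACA core proteins Dkc1, Nhp2, Nop10 and Gar1 all fell in BDC DN4 cells, by 0.48 (Gar1) to 0.86 (Nhp2). Fbl fell by 0.64, Nop56 by 0.71, Nop58 by 0.64, Snu13 by 0.67, Dkc1 by 0.80 and Nop10 by 0.83. Fbl was at 10.48 and 10.46 in BDC/NOD DN4 and 9.45 and 9.53 in BDC/B6g7 DN4, against 10.69 and 10.51 in NOD DN4 and 10.60 and 10.68 in B6g7 DN4. The BDC/B6g7 arrays were the low ones: 1 of 8 core proteins was called lower in NOD (median -0.30), and all 8 were in B6g7 (median -1.13). Of all genes 6.67% were called lower in NOD, 19.2% in B6g7 and 18.7% in the average over strains.

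In DN2-3 cells 6 of the 8 core proteins rose with the transgene, but 4 did so without B6g7 DN2-3 replicate 1 or 2, NOD DN2-3 replicate 1, BDC/B6g7 DN2-3 replicate 1 or BDC/NOD DN2-3 replicate 1 or 2, with sex as a term, or with only the arrays compared. From DN2-3 to DN4 all 8 fell in BDC cells, by 0.60 (Nop56) to 1.00 (Gar1), while 7 rose in non-Tg cells. Of all genes 15% rose with the transgene at DN2-3. Between stages 15.1% of all genes fell in BDC cells and 14% rose in non-Tg cells. The 7 core proteins that rose became 3 without NOD DN4 replicate 2 or with only the arrays compared. They became 4 without B6g7 DN2-3 replicate 2 or either B6g7 DN4 array. Between stages no core protein passed in BDC/NOD and all 8 fell in BDC/B6g7. The interaction of transgene and stage was negative for all 8, from -0.87 (Nop56) to -1.45 (Nhp2), against 17% of all genes. In BDC cells all 8 were higher in NOD than in B6g7 when stages were averaged, and the difference lay at DN4. There all 8 passed (median 0.97), against 12.9% of all genes called higher. At DN2-3 none passed, with a median of 0.03 and values from -0.25 to 0.40. In non-Tg cells Nhp2 alone passed in the average over stages (-0.43). Without NOD DN2-3 replicate 1, however, 4 core proteins were higher and 1 lower in NOD among non-Tg cells. All 8 had their lowest group mean in BDC/B6g7 DN4, the group in which 18 of 41 snoRNAs had theirs.

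Genes for factors around the particles were tested gene by gene and counted by list. Of all genes 15.4% rose and 18.7% fell with the transgene at DN4, and 15% rose and 12% fell at DN2-3. Of 15 assembly factors tested, 12 fell and 1 rose with the transgene at DN4, among them Naf1 (-1.44), Nolc1 (-1.05), Nufip1 (-0.94) and Znhit6 (-0.88), while 7 rose and none fell at DN2-3. Of 32 factors of rRNA synthesis and of the U3 snoRNA complex that processes the rRNA precursor, 25 fell and none rose at DN4, including Polr1b (-1.07), Pno1 (-1.06), Mphosph10 (-0.83) and Npm1 (-0.80), and 25 rose and none fell at DN2-3. Of 15 genes for intron debranching and the trimming of RNA ends, 9 fell and 1 rose at DN4, with Dis3 at -0.77 and Exosc9 at -0.73, while 8 rose and 3 fell at DN2-3. Of 9 genes tested from the list of noncoding snoRNA hosts, which also holds the protein-coding Taf1d, 4 fell and none rose at DN4. These were Snhg5, which fell by 1.00 (SE 0.10; adjusted p = 6.9e-07), Taf1d (-0.45), Dancr (-0.35) and Gas5 (-0.27).

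Between stages in BDC cells, 11 of the 15 assembly factors, 30 of the 32 processing factors and 5 of the 9 noncoding hosts fell and none rose. In non-Tg cells 9, 23 and 3 of these lists rose, and 1 noncoding host fell. Of all genes 11.7% rose and 15.1% fell between stages in BDC cells, and 14% rose and 11.8% fell in non-Tg cells. The interaction was negative for 13 assembly factors, with Nolc1 at -1.41, for all 32 processing factors, with Pno1 at -1.45, and for 6 noncoding hosts, with Snhg5 at -1.57. It was positive for 1 assembly factor. Of all genes 17% were called with a negative and 14.4% with a positive interaction. The snoRNAs themselves had 13 negative and 4 positive values among 41 in the same interaction, and the difference between them and these lists was not tested.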

How the data were processed

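The authors deposited linear intensity values of 25108 probe sets on 16 Affymetrix Mouse Gene 1.0 ST arrays, made with RMA in Affymetrix Power Tools (version not given in the sources used here), per the submitters' processing notes. RMA corrects background, quantile-normalizes probes and summarises them per probe set, so total signal is comparable between arrays by construction. Precision is limited by the number of arrays, since array signals give no counting depth.

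No pseudocount was added before taking log2 of the intensities (5.82 to 21466). A single gene symbol was given for 21157 probe sets, several for 1341 and none for 2610. The brightest probe set by mean was kept for each of 19531 genes, with no filter on low values, so that each of the 41 members was tested. Snora3, Snora21 and Snord58b had a second probe set, which differed from the kept one by up to 0.07, 0.36 and 0.26 on the log2 scale. A model of the 8 group means was fitted to all genes with limma 3.58.1 in R 4.3.3 (lmFit and eBayes), and p-values were adjusted over all genes by the Benjamini-Hochberg method at 0.05. Errors are the standard errors of this model. Transgene and strain comparisons averaged over the other factors within a stage or genotype. The fit was tested on simulated data.

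The members, the lists (snoRNP core proteins, assembly, U3 and rRNA processing, noncoding hosts, RNA end trimming, cell markers) and the Y-linked yardstick of background were chosen with earlier results of these data known. Named members were, per comparison, up to 3 Snord and 3 Snora with the largest called change in each direction and arrays apart in both strains or stages averaged (no such condition for interactions), those with the highest and lowest mean, and those with the largest range of group means. Other called members are named to complete counts and were chosen after their values were seen. Hosts were taken by position in the RefSeq gene table, which holds no strand. Alternatives were filters on low values, every probe set, repeated quantile normalization, median centring, the replicate number as a block, array weights, sex as a term, the compared arrays alone, a robust prior with trend, leaving out each array, and, chosen after seeing the data, signals raised to background. The sequences of the snoRNAs themselves were not used here.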

Additional observations from a re-analysis of the deposited data

Results flagged for a closer look

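The transgene difference changed with stage for 17 members (41.5%), against 31.5% of all genes. This was by the test of the interaction (limma, adjusted over all genes), a test of the difference itself. With signals raised to background 13 members passed (31.7%), against 30% of all genes, so the share was then near that of all genes. Values are the log2 difference BDC minus non-Tg at DN4 less that at DN2-3. The negative ones among C/D members were Snord49a (-1.21), Snord118 (-1.06), Snord42b (-0.66), Snord16a (-0.63), Snord22 (-0.57), Snord53 (-0.57), Snord52 (-0.49) and Snord96a (-0.39). The negative ones among H/ACA members were Snora75 (-0.73), Snora33 (-0.60), Snora21 (-0.52), Snora23 (-0.51) and Snora20 (-0.50). The positive ones were Snord37 (1.68), Snora3 (0.63), Snord85 (0.43) and Snora31 (0.36). These calls were not equally firm: Snora33 and Snord85 each lost theirs in 12 of the 16 fits that left out 1 array, and Snora31 in 9. The interaction of strain and transgene passed for Snord38a (-0.52), whose signals were at or below background on all 16 arrays and whose difference was 0 once they were raised to it.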

How the results depend on the processing

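Counts of called members in the 8 comparisons depended on the processing to different degrees. For DN4 minus DN2-3 in non-Tg cells, 7 calls became 4 with array weights, 2 with only the arrays compared and 1 with signals raised to background. For the same comparison in BDC cells, 13 became 21, 23 and 8 under these alternatives. The calls among all genes moved too, from 5047 to 3995, 3743 and 4768 in non-Tg cells. In BDC cells they went from 5237 to 6651, 6570 and 4827. For NOD minus B6g7 in non-Tg cells, 2 became 1, 0 and 1. In BDC cells 3 became 8 with array weights and 12 with only the arrays compared. Calls among all genes went from 1464 to 823, 774 and 1413 in non-Tg cells, and from 3786 to 5161 and 5048 in BDC cells. The strain by transgene interaction went from 1 call to 2 with repeated quantile normalization, 0 with array weights, 2 with a trended and robust prior and 0 with signals raised to background. Leaving out each array gave 7 to 15 calls for the transgene at DN2-3, 9 to 18 at DN4, 3 to 10 for the stage in non-Tg and 8 to 18 in BDC cells, 0 to 7 for the strain in non-Tg and 1 to 7 in BDC cells, 12 to 20 for the transgene by stage and 0 to 3 for the strain by transgene interaction. The low end at DN2-3 came without B6g7 DN2-3 replicate 2, that for the stage in BDC cells without BDC/B6g7 DN2-3 replicate 1, BDC/NOD DN2-3 replicate 2 or BDC/NOD DN4 replicate 1. For the strain in non-Tg cells there were 0 calls without B6g7 DN2-3 replicate 2 or NOD DN4 replicate 2, 1 without B6g7 DN4 replicate 1, and 4, 5 and 7 without NOD DN2-3 replicate 2, NOD DN2-3 replicate 1 and B6g7 DN4 replicate 2. In BDC cells there was 1 call without BDC/NOD DN2-3 replicate 1, BDC/B6g7 DN4 replicate 2 or BDC/NOD DN4 replicate 2, and there were 7 without either NOD DN2-3 array. The cause of these shifts was not tested. Of 867 alternative values of 34 named results, 785 kept their call, 82 lost it and 0 turned direction. In every alternative 22 of the 34 kept their call. The 34 were picked as the largest called changes in these same data. Many fits that left out 1 array dropped one outside the comparison, which leaves the change itself as it was. These totals therefore do not measure how firm the results are. Snord118 at DN2-3 had an adjusted p of 0.0517 with repeated quantile normalization, and Snord37 in the interaction one of 0.102 with the trended and robust prior. Rises and falls of members moved from 8 and 3 to 7 and 5 at DN2-3 with repeated quantile normalization, and from 3 and 4 to 5 and 3 for the stage in non-Tg cells with centring. With the replicate number as a block the counts were 12, 13, 6, 14, 2, 2, 17 and 1, for the transgene at DN2-3 and DN4, the stage in non-Tg and BDC cells, the strain in non-Tg and BDC cells, and the transgene by stage and strain by transgene interactions. Deviations of same-numbered arrays correlated from -0.228 to 0.459 over 28 pairs of groups, so the numbers were not taken to pair the arrays in all groups. All 6 pairs among the BDC groups, where replicate 1 is male and replicate 2 female, were at 0.129 to 0.350, and NOD DN2-3 with NOD DN4 was at 0.459. With sex as a term the counts in the same order were 9, 11, 6, 13, 2, 2, 17 and 1. Signals near background limit Snord37, Snord38a, Snord58b, Snord73a, Snord87 and Snora2b.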
